A study of Homo sapiens with 60 samples.

Results

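The MYC and MXD network was followed through osimertinib treatment, persistence and drug washout in non-small cell lung cancer (NSCLC) lines with mutant EGFR. Its 10 genes were chosen by name: the MYC family (MYC, MYCN and MYCL), their shared partner MAX, the MAX-binding antagonists MXD1, MXD3, MXD4, MXI1 and MNT, and the glucose-responsive relative MLXIPL. All 10 were among the 19712 genes of the deposited tables. RNA was sequenced in bulk from 4 established lines, PC9, HCC827, H1975 and HCC2935, each in 5 arms of 3 replicates, which gave 60 libraries. The arms were DMSO (solvent) for 24 h, osimertinib at 500 nM for 24 h (acute), the same dose for 21 days, which left drug-tolerant persisters (DTP), and a short and a long drug-free period after those 21 days. The short washout lasted 24 h in every line. The long washout lasted 7 days in PC9, 4 days in HCC827, 3 days in H1975 and 10 days in HCC2935. It was meant to run until growth had resumed, so its length and the line cannot be told apart. The cells for the DMSO and acute arms had been grown without drug for the same 21 days beforehand. All groups, the DMSO groups included, carry an EGFR mutation, each line is a single cell line in monolayer culture, and the labels call the replicates biological triplicates.

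MYC proteins bind DNA as pairs with MAX, at E-boxes (CACGTG), and raise the transcription of genes for ribosome building, nucleotide and polyamine synthesis and growth. The MXD proteins and MNT take MAX away from MYC, bind the same sites and bring the SIN3 corepressor with its histone deacetylases, and are known for rising when cells leave the cycle or differentiate. MLXIPL (ChREBP) pairs with MLX instead and turns on glucose-responsive genes. In EGFR-driven lung cancer cells, MYC lies downstream of RAS and ERK, which act on its transcription and on the stability of its protein. Only RNA was measured here, so protein levels and pairing are not known.

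The libraries held 17.7 to 49.1 M estimated counts, fewer in HCC827 and HCC2935 (25.6 M or less) than in PC9 and H1975 (34.7 M or more). The spread between replicates exceeded counting error in all 60 replicate pairs (8.97-fold or more, median 25.6-fold). Acute osimertinib lowered 5 of 6 ERK output genes (DUSP6, SPRY4, ETV4, ETV5, PHLDA1 and EGR1) in PC9, HCC827 and H1975 and 6 of 6 in HCC2935. The epithelial markers EPCAM, KRT8, KRT18, CDH1 and EGFR were present throughout, summing to 1559 to 16468 counts-per-million (CPM), though in H1975 CDH1 fell from 123 to 335 CPM under DMSO to 5.28 to 8.91 CPM in DTPs and 5.78 to 9.8 CPM after long washout. In HCC827 all 5 fell in DTPs (median log2 fold change -1.57) and were below DMSO after long washout (-1.25), with sums of 13509 to 16468 CPM under DMSO, 7472 to 8300 CPM in DTPs and 7545 to 8305 CPM after long washout. In PC9, H1975 and HCC2935 3 of the 5 fell in DTPs, and 1 rose in PC9 and 1 in HCC2935. Of all genes 35.9%, 17.2%, 23.4% and 27.2% fell in the DTPs of PC9, HCC827, H1975 and HCC2935. After acute osimertinib 3 markers rose and 2 fell in PC9, and 1 rose and 2 fell in HCC827. In H1975 1 rose and 1 fell, and in HCC2935 3 fell. The part of these markers in the network's changes was not tested. Of 6 markers of other cell types, CD3E stayed at or near 0 and the sum was 47 to 534 CPM, most of it CD68 and COL1A1. In PC9 and HCC2935, 7 and 5 of 7 proliferation genes rose between DTP and long washout (median 1.12 and 1.33). In PC9 edgeR called no gene at all without long washout replicate 1 or any 1 of the DTP replicates, and in HCC2935 17 to 49 of all genes in place of 745 without long washout replicate 2 or 3 or DTP replicate 1 or 2. In HCC827 and H1975 none passed the test, and MKI67 stood at 201, 339 and 117 CPM in H1975 DTPs against 147, 221 and 159.9 CPM after long washout, with 765, 649 and 683 CPM under DMSO. By these genes the long washout libraries of HCC827 and H1975 stood at the DTP level, against the regrowth named in their labels, and the long washout is therefore given line by line. The H1975 short washout libraries stood higher, as their proliferation genes summed to 1221 to 1698 CPM. The sums there were 530 to 1238 CPM in DTPs and 635 to 870 CPM after long washout. Between DTP and short washout no proliferation gene was called in H1975 (median 0.76). That fit ignored the replicate numbers, which pair the libraries of this comparison, as described below for the short washout. A fit with the replicate number as a block called 1697 of all genes, against 0 without it. Its proliferation genes are not reported here.

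Under DMSO the lines held very different amounts of MYC. HCC2935 held 43.7, 35.8 and 31.7 CPM, PC9 260.3, 217 and 246 CPM, HCC827 363, 418 and 285 CPM and H1975 415, 630 and 538 CPM. HCC2935 was far below the rest and PC9 below HCC827 without overlap, while HCC827 and H1975 overlapped by 1 library each. The range of the line means on the log2 scale was largest for MYCN (9.30), which was at or near 0 in PC9, HCC827 and H1975. It was 3.81 for MYC (adjusted p = 3.97e-09), 3.24 for MLXIPL, 2.82 for MYCL, 1.95 for MXI1 and 0.60 for MAX. All 10 members differed between the lines in this test, as did 91.2% of all genes. The difference of MXD1 (adjusted p = 0.0405) and of MNT (adjusted p = 0.0449) stood close to the threshold and did not last when single DMSO libraries were left out. For MXD1 it was lost without PC9 replicate 1 or 2, HCC827 replicate 1 or 3, H1975 replicate 3 or HCC2935 replicate 1 or 3 (range 0.58 to 0.76, adjusted p = 0.0523 to 0.179). For MNT it was lost without PC9 replicate 2, HCC827 replicate 1, any 1 of the H1975 replicates or HCC2935 replicate 2 or 3 (range 0.34 to 0.48, adjusted p = 0.0552 to 0.166), and with RLE size factors or the 10-count filter (adjusted p = 0.0517 to 0.0548).

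Per transcript length, in transcripts-per-million (TPM), MYC was the most abundant member under DMSO in PC9 (126 ± 11.9, SD, n = 3), HCC827 (208 ± 41.4) and H1975 (331 ± 71.2). In HCC2935 it was second with 25.8 ± 3.6 TPM, behind MAX with 59.8 ± 6.04 TPM. MYCN was counted only in HCC2935, at 2.22, 2.52 and 2.65 CPM, and was at 0 or within 0.155 CPM in the libraries of the other lines, too low to be tested there. MYCL was low in PC9, HCC827 and H1975 (0.594, 1.05 and 0.767 TPM on average) and higher in HCC2935 (5.62 TPM). The sum of the 5 antagonists over the sum of the 3 MYC genes, in TPM, was 0.226 ± 0.0518 in H1975, 0.317 ± 0.11 in HCC827, 0.338 ± 0.0501 in PC9 and 1.88 ± 0.0851 in HCC2935 (SD, n = 3). In 3 lines, MYC transcripts thus outnumbered those of all antagonists together before treatment, and in HCC2935 they did not.

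The first comparison asked how 24 h of osimertinib changed the network. MXD4, MXI1 and MYCL rose in all 4 lines, MYC fell in PC9 and HCC2935, and the other members changed in 1 or 2 lines. Of the members tested, 6 of 9 were called in PC9, where 68.5% of all genes tested were called, 4 of 9 in HCC827 (42.3% of all genes), 5 of 9 in H1975 (44.9%) and 8 of 10 in HCC2935 (47.1%). Of these 23 calls 18 were higher and 5 lower, and 19 held under every setting and with each library left out. In HCC827, 47.8% of the called genes were higher, and 57.9% with library sizes alone as scaling (median over all genes 0.10). Except in HCC2935 the shares were near those of all genes and say little about the members by themselves. In HCC2935 the deviations of same-numbered libraries from their group means correlated weakly in this comparison (r = 0.188, 0.126 and 0.357). It was therefore counted among the comparisons whose replicate numbers pair the libraries. The fit with a replicate block made the same 8 calls.

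MYC, the central activator of the network, did not behave alike in the lines. In PC9 it fell to 85.9, 89.5 and 154 CPM from the DMSO values above (log2 fold change -1.18, SE 0.20, adjusted p = 0.000745). In HCC2935 it fell to 13.1, 12.7 and 11.8 CPM (log2 fold change -1.59, SE 0.14, adjusted p = 1.96e-05). In these lines no treated library reached the lowest DMSO library. Such separation was looked up for the members only, so here and below it does not set them apart from other genes. HCC827 gave 471, 429 and 509 CPM, all above its DMSO libraries, and did not pass the test (log2 fold change 0.37, SE 0.14, adjusted p = 0.0546). It was called as higher by DESeq2 (adjusted p = 0.031), by limma, with library sizes alone or the 10-count filter, and by edgeR without DMSO replicate 2 (0.50, adjusted p = 0.0117). H1975 gave 408, 460.5 and 194 CPM, which overlapped its DMSO range, with 1 low library (log2 fold change -0.64, SE 0.31, adjusted p = 0.129). The 4 effects differed between the lines in the interaction test on all 60 libraries (range 1.96, adjusted p = 0.000238), a test that called 41.4% of all genes.

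**Figure D1:**
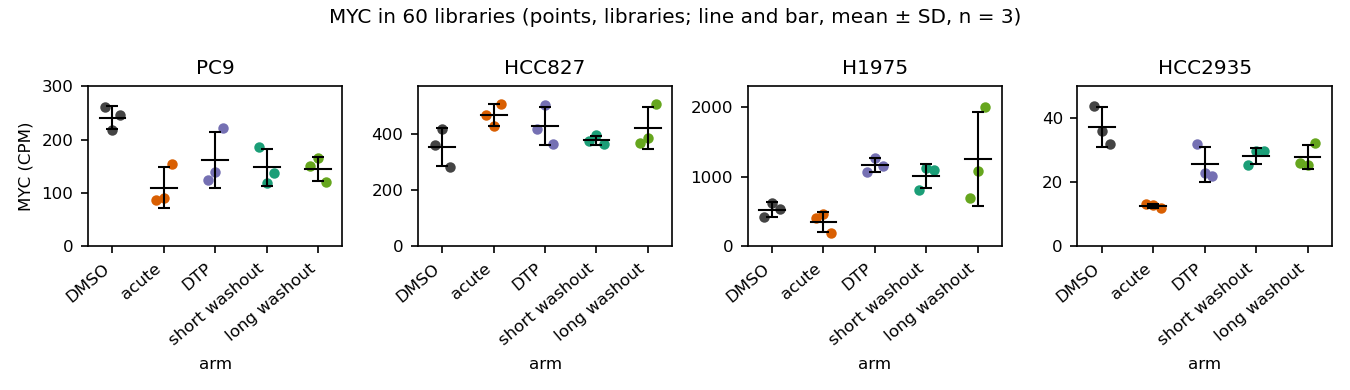
MYC in CPM on a linear axis from 0 in each of the 60 libraries, by arm, with a panel and a separate scale for each line. Points are libraries and bars the mean ± SD of 3. Acute libraries lie below all DMSO libraries in PC9 and HCC2935 and above them in HCC827, and the H1975 DTP libraries (1076 to 1277 CPM) lie above all of its DMSO and acute libraries.

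In contrast, MXD4 rose in all 4 lines. MXD4, at chr4:2247432-2262294 (minus strand) on GRCh38, encodes an MXD repressor seen in resting and differentiating cells. PC9 went from 20.6, 24.9 and 18.4 CPM to 156, 169 and 141 CPM, which is 7.08-fold (log2 fold change 2.82, SE 0.12, adjusted p = 3.92e-07). HCC2935 went from 23.6, 19.2 and 26.1 CPM to 169, 140.1 and 139 CPM, or 6.37-fold (log2 fold change 2.67, SE 0.14, adjusted p = 1.02e-06). In HCC827 and H1975 the rise was smaller. HCC827 went from 46.2, 24.6 and 43.4 to 112, 117 and 108 CPM (2.88-fold, adjusted p = 0.000474) and H1975 from 27.5, 40 and 37.6 to 124, 121 and 97.6 CPM (3.13-fold, adjusted p = 0.000285). The lowest treated library stood above the highest DMSO library in every line. The size of the rise differed between the lines (range 1.28, adjusted p = 9.03e-05).

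MXI1, the MXD family member also called MXD2 and located at chr10:110207605-110287365 (plus strand), rose in all 4 lines as well. Its CPM went from 12.9, 13.7 and 18.5 to 28.7, 32.9 and 23.6 in PC9, from 30.7, 21.6 and 30.1 to 60.1, 51.3 and 57.2 in HCC827, from 26.3, 28.7 and 23.7 to 61.8, 63 and 55.3 in H1975 and from 7.4, 6.86 and 7.13 to 21, 19.6 and 23.6 in HCC2935. The groups did not overlap in any line, and the folds were 1.83, 2, 2.19 and 2.94 (adjusted p = 0.00151, 0.000889, 0.000223 and 2.72e-05). The interaction test gave a range of 0.69 over the lines (adjusted p = 0.0251), a call that was lost without PC9 DMSO replicate 3, HCC2935 DMSO replicate 2 or HCC2935 acute replicate 3 (range 0.55 to 0.66, adjusted p = 0.0643 to 0.089).

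The promoters of MXD4 and MXI1 are shown because these genes rose together in every line, with that of MNT as the other member whose window holds an E-box. The windows run from 250 bases before to 50 after a RefSeq start, on GRCh38.p14, and were searched on both strands for the E-box CACGTG and for the forkhead (FOXO) motif GTAAACA, which do not overlap here. Capitals mark the matches. Of 35116 such windows 7.26% held the E-box and 3.42% the forkhead motif. MXD4 lies on the minus strand at chr4:2262060-2262359 and holds an E-box whose first base is at position -238, counting the start as 0. MNT lies on the minus strand at chr17:2401011-2401310 and holds an E-box at position -193. MXI1 has 3 start windows on the plus strand, none with an E-box. Those at chr10:110209981-110210280 (start A) and chr10:110225746-110226045 (start B) each hold the forkhead motif, at positions -151 (on the other strand) and -2. None of the windows searched for MYCL, MYCN, MAX, MXD1, MXD3 or MLXIPL held a match, which says only that these letters are not in those windows.
MXD4: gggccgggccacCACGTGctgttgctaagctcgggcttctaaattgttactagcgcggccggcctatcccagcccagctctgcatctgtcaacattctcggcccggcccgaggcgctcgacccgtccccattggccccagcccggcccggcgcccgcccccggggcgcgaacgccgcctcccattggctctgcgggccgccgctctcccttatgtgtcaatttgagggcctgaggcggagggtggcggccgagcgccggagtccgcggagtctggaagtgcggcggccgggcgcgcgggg
MNT: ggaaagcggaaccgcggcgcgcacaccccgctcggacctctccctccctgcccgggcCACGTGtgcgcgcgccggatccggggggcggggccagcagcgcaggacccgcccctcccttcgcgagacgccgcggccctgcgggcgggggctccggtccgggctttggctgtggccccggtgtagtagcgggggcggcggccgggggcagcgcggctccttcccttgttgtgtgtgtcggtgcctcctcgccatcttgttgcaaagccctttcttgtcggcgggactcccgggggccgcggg
MXI1 start A: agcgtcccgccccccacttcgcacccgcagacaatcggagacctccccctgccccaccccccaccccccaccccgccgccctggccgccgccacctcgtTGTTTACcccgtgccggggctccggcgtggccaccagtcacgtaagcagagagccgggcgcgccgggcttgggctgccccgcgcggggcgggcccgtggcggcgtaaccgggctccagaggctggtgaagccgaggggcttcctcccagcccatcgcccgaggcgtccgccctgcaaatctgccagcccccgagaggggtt
MXI1 start B: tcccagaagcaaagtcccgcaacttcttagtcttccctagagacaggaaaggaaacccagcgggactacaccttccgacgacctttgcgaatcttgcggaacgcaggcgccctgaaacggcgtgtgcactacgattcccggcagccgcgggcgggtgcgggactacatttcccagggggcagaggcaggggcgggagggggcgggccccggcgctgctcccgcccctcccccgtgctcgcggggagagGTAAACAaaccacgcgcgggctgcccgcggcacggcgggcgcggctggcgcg

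MYCL, the family member first described in small cell lung cancer, lies at chr1:39895426-39902256 (minus strand) and rose in all 4 lines after 24 h, from low levels. It went from 1.42, 1.65 and 1.22 to 3.88, 3.21 and 4.61 CPM in PC9, from 2.53, 1.29 and 3.02 to 8.32, 11.4 and 8.8 CPM in HCC827, from 1.65, 1.55 and 1.42 to 4.26, 4.44 and 2.91 CPM in H1975 and from 9.3, 9.43 and 11.6 to 29, 28.9 and 23 CPM in HCC2935. Again no treated library overlapped the DMSO libraries, a separation that was counted for the members only. The folds were 2.64, 4.05, 2.4 and 2.62 (adjusted p = 0.000898, 0.00121, 0.00572 and 8.13e-05), and the interaction test did not call a difference between them (range 0.74, adjusted p = 0.168). MYCL overlaps a gene on the opposite strand and has 2 pseudogenes named after it, and whether counting used strand is not stated, so its counts may hold reads of these. MYCN fell in HCC2935, from 2.22, 2.52 and 2.65 to 0.67, 0.618 and 0.412 CPM (log2 fold change -2.14, SE 0.38, adjusted p = 0.00134), also with an opposite-strand neighbour, MYCNOS. In HCC2935, MYC and MYCN thus fell while MYCL rose.

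**Figure D2:**
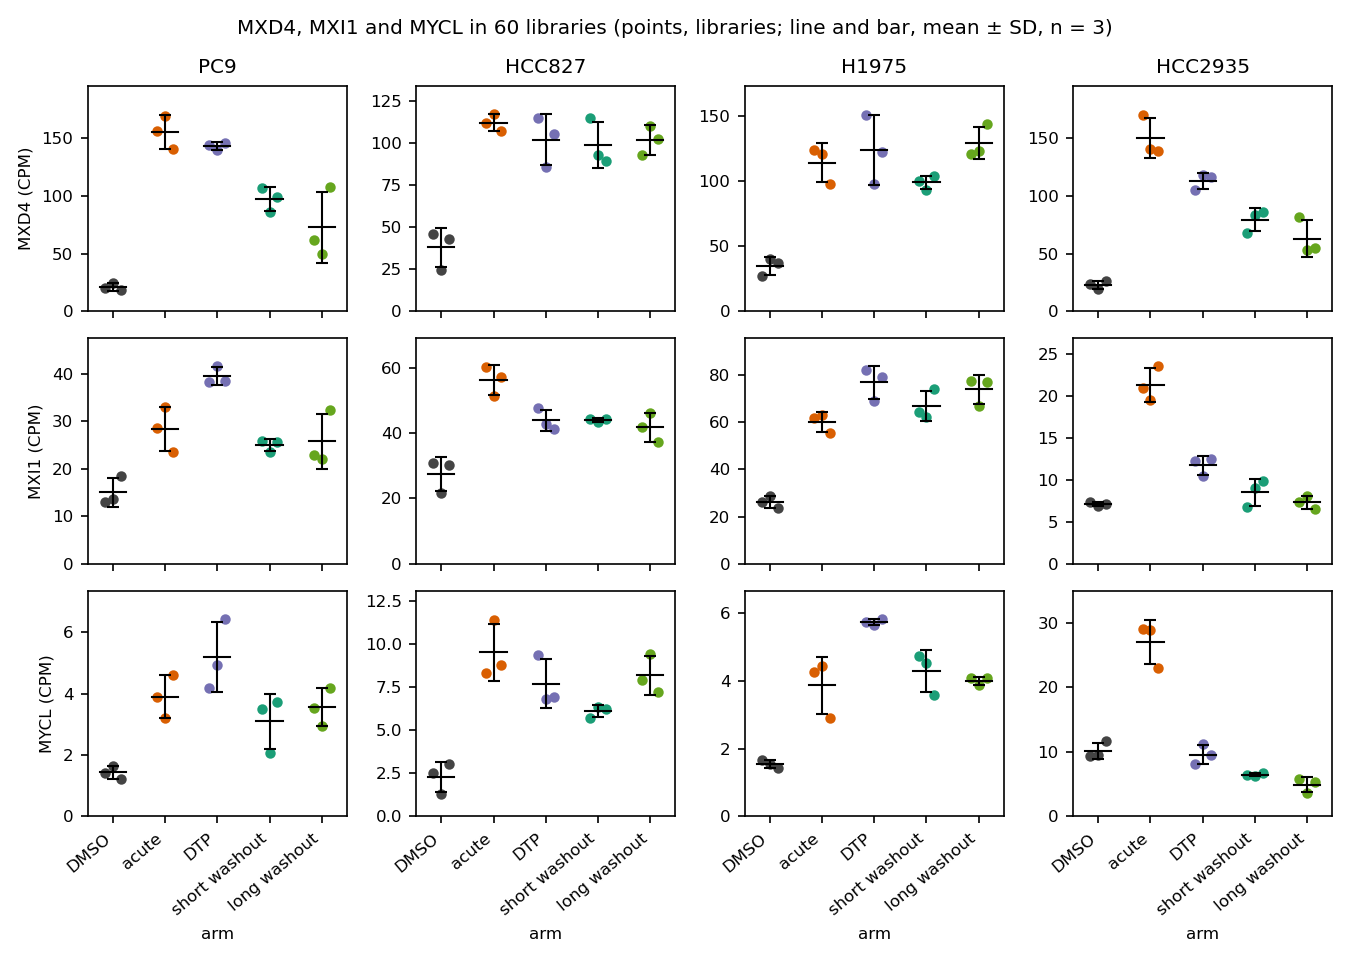
MXD4, MXI1 and MYCL (rows) in CPM on linear axes from 0 in the 60 libraries, by arm and line (columns), each panel on its own scale. Points are libraries and bars the mean ± SD of 3. For all 3 genes every acute library lies above every DMSO library of its line, and in HCC2935 MYCL in DTPs (8.09 to 11.1 CPM) overlaps DMSO (9.3 to 11.6 CPM).

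The other members changed in 1 or 2 lines. MXD1, an antagonist induced early in differentiation, rose in PC9 from 8.39, 10.6 and 16.4 to 26.2, 29.7 and 19.2 CPM (log2 fold change 1.05, SE 0.25, adjusted p = 0.0047) and had log2 fold changes of 0.13, 0.17 and -0.038 in HCC827, H1975 and HCC2935, none of which passed. The difference of MXD1 between the lines (range 1.08, adjusted p = 0.0397) was lost in 11 of 24 fits that left out a library, among them PC9 DMSO replicate 1 (adjusted p = 0.178) and PC9 acute replicate 2 (adjusted p = 0.184). MXD3, the member known to peak in S phase, rose in PC9 (0.49, adjusted p = 0.0225) and fell in HCC2935 (-0.71, adjusted p = 0.00545). The PC9 call of MXD3 was lost without acute replicate 1 or 3 or DMSO replicate 1 or 2 (0.39 to 0.45, adjusted p = 0.0686 to 0.0891). The shared partner MAX rose in HCC2935 (0.56, adjusted p = 0.0018) and fell in H1975 (-0.31, adjusted p = 0.0268), the latter lost without acute replicate 1 or 2 or any 1 of the DMSO replicates (-0.36 to -0.26, adjusted p = 0.0567 to 0.0701) and with library sizes alone as scaling (adjusted p = 0.0565). MNT, the antagonist present in growing cells too, rose in HCC827 from 46.7, 43.7 and 55.3 to 74.7, 65.6 and 68.3 CPM (adjusted p = 0.00954) and in H1975 (0.35, adjusted p = 0.0347), where the call was lost without acute replicate 1 or 3 or any 1 of the DMSO replicates (0.25 to 0.37, adjusted p = 0.0595 to 0.134) and with no filter on low counts or limma on log2 TPM (adjusted p = 0.0529 to 0.0645). MLXIPL rose in HCC2935 (0.58, adjusted p = 0.013), lost without DMSO replicate 2 (0.48, adjusted p = 0.0517). In H1975 its libraries ran from 4.77 to 18.7 CPM under DMSO and from 10.9 to 47 CPM after osimertinib, and the difference did not pass.

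**Figure D3:**
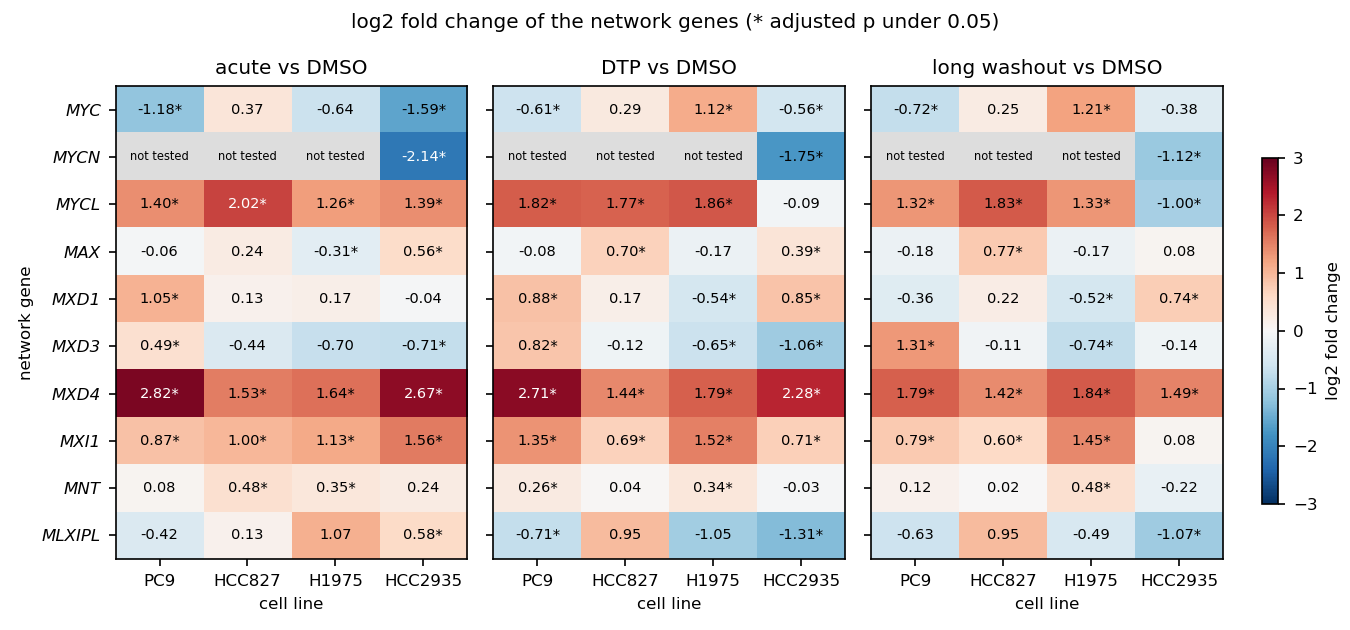
log2 fold change against DMSO of the 10 network genes (rows) in the 4 lines (columns) for acute osimertinib, DTP and long washout, with a colour scale from -3 to 3. An asterisk marks an adjusted p under 0.05 in edgeR, and grey cells were too low to be tested. MXD4 is higher with an asterisk in all 12 cells, while MYC is lower in PC9 and higher in H1975 DTPs and long washout.

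The next question was whether known targets followed MYC. Of 30 genes that MYC activates in many cell types, such as those for the nucleolar proteins NCL, NPM1 and NOP56, ODC1 and SRM of polyamine synthesis and CAD of pyrimidine synthesis, 29 were analysed (AMD1 was not used here). After acute osimertinib 29 of 29 fell in PC9, where 34.1% of all genes fell, with a median log2 fold change of -1.38 against 0.026 over all genes. In HCC827 23 fell (22.1% of all genes, median -0.75), in H1975 29 (23.7%, median -0.88) and in HCC2935 28 (25.1%, median -0.94). None rose in any line. In HCC827, where MYC was not lower, the median of the list was still -0.75 against 0.0086 over all genes. Examples are NOLC1, a nucleolar assembly factor, with -1.82, -1.06, -1.40 and -1.16 in PC9, HCC827, H1975 and HCC2935, and SRM, spermidine synthase, with -2.02, -1.11, -1.43 and -1.04. The folate carrier SLC19A1 (-1.85 in PC9, -0.10 in HCC827) and RRP12 (-1.20 and -0.056) were among those that did not pass in HCC827. Many of these genes also depend on growth rate, and all 7 proliferation genes, MKI67, TOP2A, CDK1, CCNB1, BUB1, E2F1 and MCM2, fell in every line (median -1.67, -2.39, -2.21 and -2.0). Their part in the target result was not tested. In bulk RNA, fewer dividing cells and less RNA of these genes per cell cannot be told apart.

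**Figure D4:**
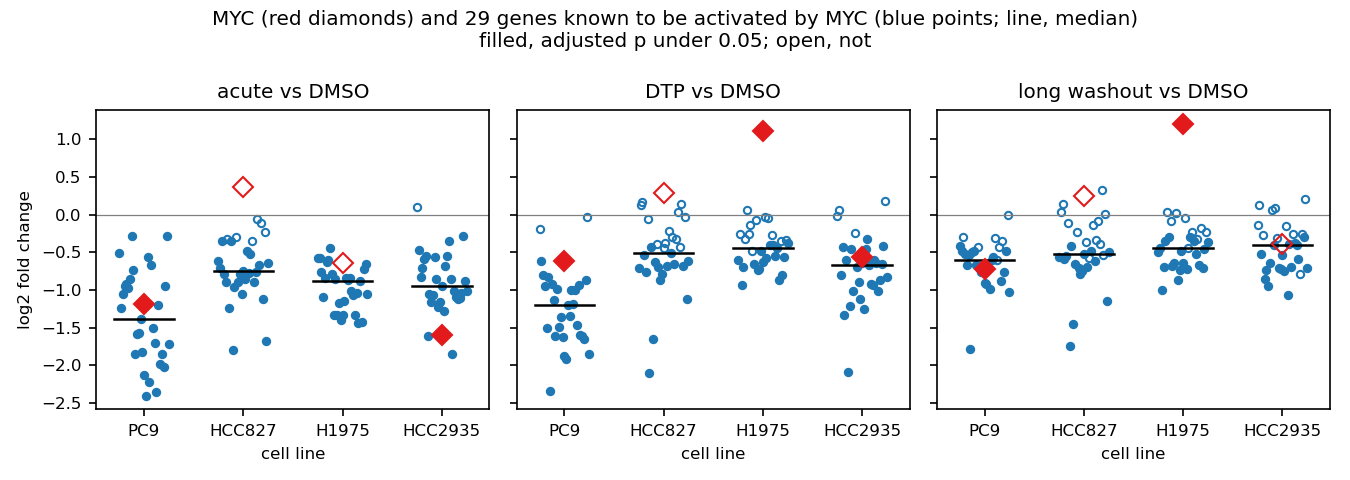
log2 fold change against DMSO of MYC (red diamonds) and of 29 genes known to be activated by MYC (blue points, black line the median) in the 4 lines, for acute osimertinib, DTP and long washout. Filled marks passed an adjusted p of 0.05. In HCC827 and, for DTP and long washout, in H1975 the diamond lies above 0 while the medians lie below it.

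Of 6 genes that MYC is known to repress, 4 rose in PC9, 2 in HCC827, 4 in H1975 and 3 in HCC2935, where 5 were tested, and 1 fell in PC9, HCC827 and HCC2935 each. Of all genes 34.4%, 20.2%, 21.2% and 22% rose. The CDK inhibitor gene CDKN2B rose in PC9 (3.02), HCC827 (1.52) and H1975 (1.43). CDKN1C, another CDK inhibitor gene, rose by 3.51, 3.28 and 1.59 in PC9, HCC827 and HCC2935. CDKN1A went against the list's direction in PC9, where it fell (-1.04), and rose in H1975 (1.35). NDRG1 fell in HCC827 (-0.84) and GADD45A in HCC2935 (-1.07). The glucose-responsive target TXNIP, which MLXIPL and its relative MLXIP can activate, rose in all 4 lines (1.61, 0.88, 1.19 and 0.68), whereas ARRDC4, of the same kind, fell in PC9 (-0.66) and did not pass elsewhere.

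Among 17 genes that assist MYC or control its turnover, 12 fell in PC9, 7 in HCC827, 7 in H1975 and 9 in HCC2935, against the 34.1%, 22.1%, 23.7% and 25.1% of all genes that fell. In PC9 2 of them rose, in HCC2935 1 and in the other lines none. CIP2A, which shields MYC from a phosphatase, fell in all 4 lines (-2.27, -2.35, -2.15 and -2.25). AURKA, a mitotic kinase that stabilizes MYCN, fell as well (-1.63, -2.28, -2.35 and -1.26), as did WDR5, RUVBL1, RUVBL2 and SKP2. CIP2A, AURKA and SKP2 are also cell cycle genes. FBXW7, which marks MYC for degradation, and ZBTB17 (MIZ1), its partner in repression, passed the test in none of the lines. Of the 14 genes of the SIN3 corepressor, to which MXD proteins bind, 9 fell in PC9, 4 in HCC827, 7 in H1975 and 4 in HCC2935, while 3, 2, 2 and 3 rose. In HCC827 and HCC2935 the share that fell was near that of all genes. The scaffold SIN3B rose in HCC827 (0.69), H1975 (0.71) and HCC2935 (0.46) and fell in PC9 (-0.24), and the deacetylase gene HDAC1 fell in PC9, HCC827 and HCC2935. Of the other network genes, MGA fell in PC9 and H1975, MLX in H1975 and HCC2935, and MLXIP in none.

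The second comparison asked how the network stood in the persisters after 21 days of osimertinib. MXD4 and MXI1 were above DMSO in all 4 lines and MYCL in 3, while MYC was higher in H1975 and lower in PC9 and HCC2935. Against DMSO, DTPs had 8 of 9 tested members called in PC9 (71.3% of all genes), 4 of 9 in HCC827 (36.7%), 7 of 9 in H1975 (45.7%) and 8 of 10 in HCC2935 (52.5%). Of these 27 calls 19 were higher and 8 lower, and 20 held under every setting and with each library left out. Against acute treatment, 2 of 9 members were called in PC9 (39.8% of all genes), 3 of 9 in HCC827 (29.5%), 4 of 9 in H1975 (26.2%) and 6 of 10 in HCC2935 (42.4%). The comparisons against DMSO share the DMSO libraries, so they are not independent of each other. In PC9, 49.7% of the genes called against DMSO and 48.3% of those called against acute treatment were higher. On the log2 TPM scale these shares were 65.3% and 82.8%, with medians over all genes of 0.29 and 0.28, and with library sizes alone the second was 69.1% (median 0.15). In HCC2935 the log2 TPM scale moved them from 48.2% to 62.3% and from 51.8% to 69.7%, with medians of 0.17 and 0.17. Differences of about that size are therefore read relative to these shifts.

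MXD4 stayed high: DTPs held 144, 139.8 and 146 CPM in PC9, 115, 85.8 and 106 CPM in HCC827, 151, 97.9 and 123 CPM in H1975 and 104, 118 and 116 CPM in HCC2935. Against DMSO this was 6.54-, 2.72-, 3.46- and 4.86-fold (adjusted p = 4.38e-08, 0.0018, 0.00022 and 3.32e-06), with no overlap in any line. Between acute treatment and DTP, MXD4 was called in HCC2935 only, where it fell by 0.40 on the log2 scale (adjusted p = 0.0126), a call lost without acute replicate 1 (-0.31, adjusted p = 0.0507) and with limma on log2 TPM (adjusted p = 0.108). In TPM, MXD4 rose from 7.82 ± 1.21 to 61.7 ± 1.49 in PC9 (SD, n = 3), from the sixth to the second most abundant member.

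MXI1 was also above DMSO in the DTPs of every line, at 38.4, 41.6 and 38.6 CPM in PC9, 47.5, 42.8 and 41.2 in HCC827, 82.3, 69.1 and 79.3 in H1975 and 12.3, 10.4 and 12.5 in HCC2935 (2.56-, 1.61-, 2.86- and 1.63-fold). From acute to DTP the lines parted. MXI1 rose further in PC9 (log2 fold change 0.49, SE 0.12, adjusted p = 0.0116) and H1975 (log2 fold change 0.34, SE 0.11, adjusted p = 0.0475). It fell in HCC827 (log2 fold change -0.36, SE 0.10, adjusted p = 0.036) and HCC2935 (log2 fold change -0.86, SE 0.15, adjusted p = 0.00122). The H1975 call was lost without any 1 of the acute replicates or DTP replicate 1 or 3 (0.28 to 0.37, adjusted p = 0.0622 to 0.155) and with RLE size factors, library sizes alone as scaling or no filter on low counts (adjusted p = 0.0505 to 0.0618) and the HCC827 call without any 1 of the acute replicates or DTP replicate 2 or 3 (-0.42 to -0.31, adjusted p = 0.0521 to 0.132) and with limma on log2 TPM or a fit of all 15 libraries of the line (adjusted p = 0.062 to 0.0856).

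MYC (chr8:127735434-127741434, plus strand) again split the lines. In H1975 DTPs it rose to 1076, 1277 and 1158 CPM, 2.17-fold above DMSO (log2 fold change 1.12, SE 0.16, adjusted p = 0.000696) and 3.26-fold above acute treatment. In PC9 DTPs it held 125, 139.7 and 221 CPM, below DMSO (log2 fold change -0.61, SE 0.18, adjusted p = 0.0109) although 1 library reached the lowest DMSO library. In HCC2935 it held 31.7, 22.8 and 21.8 CPM, which was lower than DMSO (log2 fold change -0.56, SE 0.17, adjusted p = 0.0212) and 2.04-fold higher than after acute treatment (adjusted p = 0.000838). The HCC2935 call against DMSO was lost without DMSO replicate 1 or 2 or DTP replicate 2 or 3 (-0.56 to -0.40, adjusted p = 0.0535 to 0.107) and with limma on log2 TPM (adjusted p = 0.0728). With limma on the log2 TPM values, the PC9 difference did not pass either (-0.39, adjusted p = 0.0925). In HCC827 the DTPs at 421, 504 and 367 CPM did not differ by the test (log2 fold change 0.29, SE 0.17, adjusted p = 0.218). The effects differed between the lines (range 1.74, adjusted p = 0.00015), as for 63.9% of all genes.

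MYCL kept its rise in the DTPs of PC9 (4.17, 4.94 and 6.42 CPM, 3.52-fold), HCC827 (9.36, 6.79 and 6.94 CPM, 3.41-fold) and H1975 (5.74, 5.65 and 5.83 CPM, 3.63-fold). In HCC2935 it was back at 8.09, 11.1 and 9.46 CPM, within its DMSO range but for 1 lower library (log2 fold change -0.093, SE 0.18, adjusted p = 0.696), having fallen 2.8-fold from the acute level. The interaction test called that difference (range 1.95, adjusted p = 4.04e-07). MYCN stayed low in HCC2935 at 0.842, 0.704 and 0.659 CPM (log2 fold change -1.75, SE 0.34, adjusted p = 0.00226).

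MXD1 and MXD3 changed in opposite directions in different lines. MXD1 rose in PC9 DTPs (0.88) and in HCC2935 DTPs, from 21.7, 16.6 and 21.2 to 44.5, 31.3 and 32.9 CPM (log2 fold change 0.85, SE 0.17, adjusted p = 0.00245), where its log2 fold change at 24 h had been -0.038. It fell in H1975 DTPs (-0.54), a call lost without DMSO replicate 1 or 3 or any 1 of the DTP replicates (-0.56 to -0.34, adjusted p = 0.0824 to 0.15) and with limma on log2 TPM or a fit of all 15 libraries of the line (adjusted p = 0.0673 to 0.0717). MXD1 overlaps SNRNP27 on the same strand in the annotation. MXD3 rose in PC9 DTPs from 7.57, 7.73 and 8.82 to 13.3, 17.1 and 13.4 CPM (log2 fold change 0.82, SE 0.15, adjusted p = 0.000582) and fell in HCC2935 DTPs from 15.7, 17.9 and 13.8 to 8.17, 5.91 and 8.8 CPM (log2 fold change -1.06, SE 0.19, adjusted p = 0.00138). In H1975 it fell too (-0.65, adjusted p = 0.0442), lost without DMSO replicate 1 or 3 or DTP replicate 2 or 3 (-0.77 to -0.44, adjusted p = 0.0521 to 0.168). The interaction test called both genes (MXD1 range 1.41, adjusted p = 0.0009, and MXD3 range 1.87, adjusted p = 1.96e-05). MXD3 overlaps RAB24 and PRELID1, which may share reads with it.

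Of the remaining members, MAX rose in the DTPs of HCC827, from 35.9, 48.6 and 34.5 to 66.2, 58.4 and 66.6 CPM (log2 fold change 0.70, SE 0.16, adjusted p = 0.00862), and of HCC2935 (0.39, adjusted p = 0.00898). In PC9 the MAX difference was -0.08 and did not pass, and on the log2 TPM scale its sign was reversed (0.19, adjusted p = 0.0496). MAX overlaps FNTB on the opposite strand. MNT rose by 0.26 in PC9, about the size of the shift named above, and by 0.34 in H1975. The PC9 call was lost without DMSO replicate 1 or 2 or DTP replicate 1 or 3 (0.19 to 0.25, adjusted p = 0.0752 to 0.0975) and the H1975 call without DMSO replicate 1 or 3 or DTP replicate 1 or 3 (0.30 to 0.35, adjusted p = 0.0752 to 0.122) and with limma on log2 TPM (adjusted p = 0.054). MLXIPL fell in HCC2935 DTPs from 19.2, 14.7 and 17.9 to 7.45, 9.27 and 4.33 CPM (log2 fold change -1.31, SE 0.25, adjusted p = 0.00228) after it had been higher at 24 h, and in PC9 (-0.71, adjusted p = 0.0217), where the call was lost without DMSO replicate 2 or 3 or DTP replicate 1 or 3 (-0.69 to -0.54, adjusted p = 0.0504 to 0.0886) and with library sizes alone as scaling or limma on log2 TPM (adjusted p = 0.0609 to 0.126). From acute to DTP it fell in H1975 too, from 10.9, 26.9 and 47 to 4.35, 4.82 and 9.96 CPM (log2 fold change -2.18, SE 0.51, adjusted p = 0.0167), a call lost without DTP replicate 1 or 2 (-2.01 to -1.96, adjusted p = 0.0576 to 0.0688). In HCC2935, MLXIPL and MYCL had thus both risen by 24 h and fell again between 24 h and 21 days (MLXIPL -1.90, adjusted p = 0.000226).

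Between acute treatment and DTP in HCC827, MAX rose (0.41), lost without acute replicate 1 or 3 or DTP replicate 3 (0.36 to 0.39, adjusted p = 0.0656 to 0.0883), and MNT fell (-0.49), lost without any 1 of the acute replicates or DTP replicate 2 or 3 (-0.53 to -0.38, adjusted p = 0.0765 to 0.122) and with limma on log2 TPM (adjusted p = 0.0589). In PC9, MNT rose from acute to DTP (0.19), lost without any 1 of the acute replicates or any 1 of the DTP replicates (0.17 to 0.21, adjusted p = 0.059 to 0.137) and with no filter on low counts or a fit of all 15 libraries of the line (adjusted p = 0.0807 to 0.183). In H1975, MXD1 fell from acute to DTP (-0.76), lost without acute replicate 2 or 3 or any 1 of the DTP replicates (-0.79 to -0.63, adjusted p = 0.0525 to 0.0857).

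In the H1975 persisters MYC and its activated targets went in opposite directions from DMSO. In H1975 DTPs, where MYC was 2.17-fold up, 17 of 29 MYC-activated genes were lower than under DMSO (23.4% of all genes) and none higher, with a median of -0.44. CDK4 (-0.93), RRP9 (-0.87) and SRM (-0.80) were among the lower ones, and NOP56 (-0.03), ODC1 (-0.047) and GNL3 (0.065) did not pass. Compared with acute treatment, though, 17 of the 29 rose in H1975 DTPs and none fell (median 0.52), against 11.2% of all genes called higher. The 7 proliferation genes had a median of 0.52 there and none was called. In this comparison edgeR called 3894 of all genes, and 1775 without acute replicate 2. It called 2224 to 2570 without acute replicate 3 or any 1 of the DTP replicates. The counts of targets in those fits are not reported here. In PC9 DTPs 27 were lower than DMSO (35.9% of all genes, median -1.20), in HCC827 16 (17.2%, median -0.50) and in HCC2935 25 (27.2%, median -0.67). HK2, a hexokinase gene, was the furthest down of them in PC9 (-2.34), HCC827 (-2.10) and HCC2935 (-2.09). The repressed list had 6 of 6 higher in PC9 and 4, 3 and 3 higher in HCC827, H1975 and HCC2935, with 1 lower in HCC827 and 1 in HCC2935. In the DTPs of the 4 lines, in the same order, 35.4%, 19.4%, 22.4% and 25.3% of all genes were called higher. NDRG1, a classical MYC-repressed gene, rose in PC9 (1.70), H1975 (1.31) and HCC2935 (0.87) but fell in HCC827 (-2.01). TXNIP was higher in the DTPs of PC9 (1.71) and H1975 (1.54) and lower in HCC2935 (-0.95). Proliferation genes were again lower in 6 of 7 cases in PC9 and 7 of 7 in the other lines, and their part was not tested.

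The sum of the antagonists over the MYC genes, in TPM, brings these changes together. After acute osimertinib it was 1.97 ± 0.664 in PC9, 0.424 ± 0.0294 in HCC827, 0.682 ± 0.329 in H1975 and 5.41 ± 0.412 in HCC2935 (SD, n = 3). Every acute library of PC9, H1975 and HCC2935 stood above every DMSO library of its line, and HCC827 overlapped. In DTPs it was 1.39 ± 0.378 in PC9 and 4.43 ± 0.631 in HCC2935. In HCC827 DTPs it was 0.399 ± 0.082, which overlapped the DMSO range of 0.2 to 0.419. In H1975 DTPs it was 0.2 ± 0.0445, which overlapped the DMSO range of 0.19 to 0.286 as both sums were higher, the antagonists going from 72.7 to 140.2 TPM and the MYC genes from 331 to 709.7 TPM. These are RNA sums and were not tested.

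**Figure D5:**
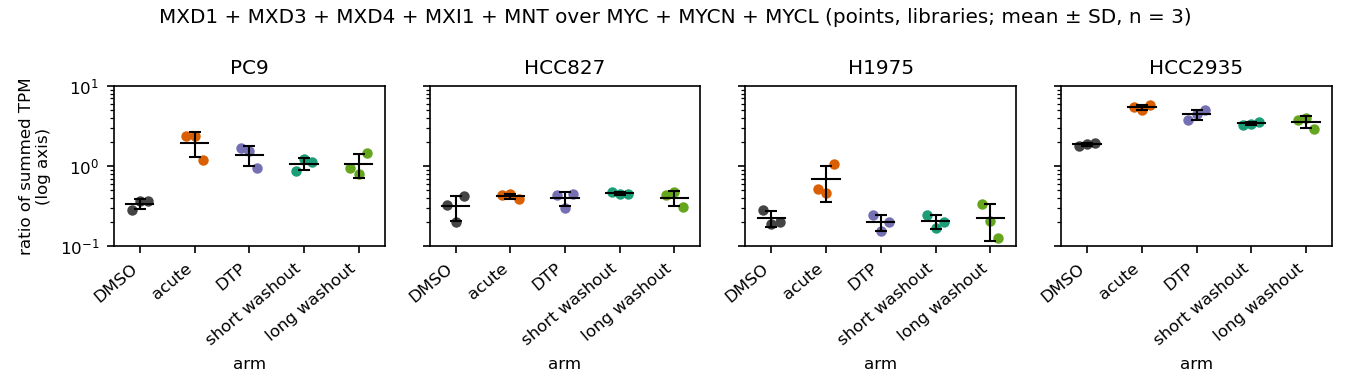
Ratio of the summed TPM of MXD1, MXD3, MXD4, MXI1 and MNT to that of MYC, MYCN and MYCL, on a log axis, in the 60 libraries by arm and line. Points are libraries and bars the mean ± SD of 3. Acute libraries stand above DMSO in PC9, H1975 and HCC2935, and HCC2935 lies above 1 in every arm.

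The third question was what happened once the drug was removed. A short washout of 24 h moved 3 of 9 members in PC9 (22.2% of all genes) and 1 of 10 in HCC2935 (3.52%). In PC9, MXD4 fell to 107, 86.3 and 99.3 CPM (log2 fold change -0.56, SE 0.076, adjusted p = 0.00225), MXI1 to 25.8, 23.5 and 25.7 CPM (log2 fold change -0.66, SE 0.077, adjusted p = 0.0013) and MXD1 to 18.1, 14.9 and 16 CPM (log2 fold change -0.45, SE 0.11, adjusted p = 0.0171). All short washout libraries were under all DTP libraries for these 3 genes, and MXD1 was lost without DTP replicate 1 or 3 or short washout replicate 2 or 3 (-0.44 to -0.39, adjusted p = 0.0512 to 0.0658) and with limma on log2 TPM or a fit of all 15 libraries of the line (adjusted p = 0.0506 to 0.359). Fitted with all 15 libraries of PC9, MXD4 did not pass either (-0.55, adjusted p = 0.118). In HCC2935, MXD4 fell to 68, 83.7 and 85.9 CPM (log2 fold change -0.50, SE 0.11, adjusted p = 0.0366), lost without DTP replicate 2 or 3 or any 1 of the short washout replicates (-0.57 to -0.41, adjusted p = 0.0724 to 0.109) and with a fit of all 15 libraries of the line (adjusted p = 0.0898). MYC did not pass in any line, with log2 fold changes of -0.14, -0.18, -0.20 and 0.15 in PC9, HCC827, H1975 and HCC2935.

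In HCC827 and H1975 edgeR called 0% of all genes after short washout, and so none of the members, with 197 and 1950 genes at an unadjusted p under 0.05. DESeq2 called 399 genes in H1975 and none in HCC827. In both lines the replicate numbers pair the libraries of this comparison by the same correlations (r = 0.402 to 0.694 in HCC827 and 0.249 to 0.599 in H1975). With a replicate block edgeR called 2 genes in HCC827 and 1697 in H1975, none of them a member. MYCL had log2 fold changes of -0.75, -0.33, -0.41 and -0.57 in PC9, HCC827, H1975 and HCC2935, none of which passed in edgeR (adjusted p = 0.0684, 1, 0.375 and 0.119). DESeq2 called it lower in PC9 (-0.75, adjusted p = 0.031). Its short washout libraries all lay under the DTP libraries in each of the 4 lines, a separation counted for the members only.

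Between DTP and long washout, MXD4 fell in PC9 and HCC2935, MXI1 and MXD1 in PC9 and MYCL in HCC2935. MXD3 was just short of the threshold, at 20.2, 20.2 and 19 CPM in PC9 (log2 fold change 0.48, SE 0.14, adjusted p = 0.0543) and 11, 16.4 and 14.7 CPM in HCC2935 (log2 fold change 0.89, SE 0.22, adjusted p = 0.0505), above all DTP libraries in each. DESeq2 and the fit of all 15 libraries of the line called it higher in both (adjusted p = 0.0217 to 0.0248 in PC9 and 0.00488 to 0.00559 in HCC2935), and RLE size factors, library sizes alone, no filter and the 10-count filter did so in HCC2935. In PC9, MXD4 stood at 61.6, 49.6 and 108 CPM (log2 fold change -0.94, SE 0.26, adjusted p = 0.0461), MXI1 at 23, 22 and 32.4 CPM (log2 fold change -0.58, SE 0.16, adjusted p = 0.0487) and MXD1 at 7.87, 5.44 and 14 CPM (log2 fold change -1.25, SE 0.31, adjusted p = 0.0383), 3 of 9 members called against 17.3% of all genes. Of the genes called in PC9 68.4% were higher, and 55.5% with DESeq2. Long washout replicate 3 was the highest of its group for MXD4 and MXI1. These PC9 calls rested on nearly the full set of libraries. MXD4 was lost without any 1 of the DTP replicates or long washout replicate 1 or 2 (-0.95 to -0.73, adjusted p = 0.0888 to 0.142) and with library sizes alone as scaling or limma on log2 TPM (adjusted p = 0.0501 to 0.0502). MXI1 was lost without any 1 of the DTP replicates or long washout replicate 1 or 2 (-0.60 to -0.48, adjusted p = 0.111 to 0.153) and with library sizes alone as scaling or limma on log2 TPM (adjusted p = 0.0505 to 0.0534), and MXD1 was lost without any 1 of the DTP replicates or long washout replicate 1 or 2 (-1.32 to -1.0, adjusted p = 0.069 to 0.129). In HCC2935, MXD4 fell to 81.3, 53.1 and 54.4 CPM (log2 fold change -0.84, SE 0.16, adjusted p = 0.0277) and MYCL to 5.75, 3.65 and 5.37 CPM (log2 fold change -0.95, SE 0.23, adjusted p = 0.0484), 2 of 10 members against 5.16%. MXD4 was lost without any 1 of the DTP replicates or long washout replicate 2 or 3 (-0.89 to -0.73, adjusted p = 0.0529 to 0.116) and MYCL without any 1 of the DTP replicates or long washout replicate 2 or 3 (-1.06 to -0.78, adjusted p = 0.0933 to 0.166) and with limma on log2 TPM (adjusted p = 0.0608). No member was called in HCC827, where edgeR called 0% of all genes (434 at an unadjusted p under 0.05, 7 by DESeq2), or in H1975, where it called 0.0136% (2 genes, 72 by DESeq2, and 660 at an unadjusted p under 0.05). Neither of those 2 genes was higher, against 25% of the 72.

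Against DMSO, 5 of 9 members differed after long washout in PC9 (30.6% of all genes), 4 of 9 in HCC827 (39.7%), 7 of 9 in H1975 (55%) and 5 of 10 in HCC2935 (39.9%). In PC9 51.9% of the called genes were higher, against 67.4% with library sizes alone and 69.1% on the log2 TPM scale. The long washout libraries still held more MXD4 in all 4 lines: 3.45-fold in PC9, 2.67-fold in HCC827 (92.9, 110.2 and 103 CPM), 3.58-fold in H1975 (121, 123 and 144 CPM) and 2.8-fold in HCC2935 (adjusted p = 0.00508, 0.000928, 3.72e-05 and 0.00027). The lowest long washout library was above the highest DMSO library in each. In PC9 and HCC2935 this was measured beside proliferation genes that had risen from the DTP level. Of these 7 genes 2 and 4 were still under DMSO (14.7% and 18.9% of all genes), and 1 was above it in PC9. The interaction test did not call a difference in MXD4 between the lines (range 0.46, adjusted p = 0.349), and it called 57.1% of all genes.

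MXI1 remained above DMSO in PC9 (0.79), HCC827 (0.60) and H1975 (1.45), but not in HCC2935, where 7.41, 8.1 and 6.49 CPM lay around the DMSO values (log2 fold change 0.075, SE 0.19, adjusted p = 0.777). That difference between the lines was called (range 1.41, adjusted p = 1.58e-06). The PC9 call was lost without DMSO replicate 1 or 2 or long washout replicate 1 (0.68 to 0.86, adjusted p = 0.0502 to 0.0941) and the HCC827 call without long washout replicate 2 (0.54, adjusted p = 0.064). MYCL was above DMSO in PC9 (1.32), HCC827 (1.83) and H1975 (1.33) and below it in HCC2935 (log2 fold change -1.0, SE 0.23, adjusted p = 0.00668), with the interaction test called as well (range 2.84, adjusted p = 1.00e-09). The PC9 call was lost without DMSO replicate 3 (1.22, adjusted p = 0.0553). MYC was below DMSO in PC9 (log2 fold change -0.72, SE 0.13, adjusted p = 0.0079) and above it in H1975, at 688, 1084 and 2006 CPM with 1 library far above the others (log2 fold change 1.21, SE 0.34, adjusted p = 0.0178), which was lost without DMSO replicate 1 or 3 (1.06 to 1.22, adjusted p = 0.054 to 0.0569). Without that highest library, long washout replicate 3, the H1975 value was 0.71, adjusted p = 0.0383.

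In PC9, MXD3 stood at 20.2, 20.2 and 19 CPM or 2.48-fold above DMSO (log2 fold change 1.31, SE 0.13, adjusted p = 0.00171), and in HCC2935 returned to 11, 16.4 and 14.7 CPM (-0.14, adjusted p = 0.586). MXD3 stayed under DMSO in H1975 (-0.74). MXD1 was above DMSO in HCC2935 (0.74, adjusted p = 0.00499) and below it in H1975 (-0.52), lost without DMSO replicate 1 or 3 or any 1 of the long washout replicates (-0.60 to -0.33, adjusted p = 0.0526 to 0.124) and with limma on log2 TPM or a fit of all 15 libraries of the line (adjusted p = 0.0577 to 0.0891). MAX stayed above DMSO in HCC827 (0.77), MNT in H1975 (0.48), and MLXIPL (-1.07) and MYCN (-1.12) stayed below it in HCC2935. The MYCN call was lost without any 1 of the DMSO replicates or any 1 of the long washout replicates (-1.22 to -0.99, adjusted p = 0.0507 to 0.0858).

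The MYC-activated genes were mostly still low after long washout. Between DTP and long washout 17 of 29 rose in PC9 (11.8% of all genes), by up to 1.25 for SLC19A1 and 0.98 for NOP56, and in HCC2935 5 rose (2.99% of all genes) and 1, ODC1, fell (-0.78). Of all genes, edgeR called 2496 in PC9, 0 without long washout replicate 1 or any 1 of the DTP replicates, 98 without long washout replicate 2 and 6815 without long washout replicate 3. In HCC2935 it called 745, and 17 to 49 without long washout replicate 2 or 3 or DTP replicate 1 or 2. No gene of the list passed in HCC827 or H1975. Against DMSO 22 were still lower in PC9 (14.7% of all genes, median -0.59), 16 in HCC827 (19.9%, median -0.52), 20 in H1975 (28.2%, median -0.44) and 18 in HCC2935 (18.9%, median -0.40). The PC9 count was 8 without DMSO replicate 1, 5 without DMSO replicate 3 and 11 without long washout replicate 1. The HCC827 count was 10 without long washout replicate 1 and also without replicate 2, and the HCC2935 count was 11 without DMSO replicate 1. No gene of the list was above DMSO in any line.

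The members were last compared with each other and with all genes over the 20 group means, on log2(CPM + 1) values centred within each line. These are descriptions over points that share arms and normalization. MXI1 followed MYCL (Pearson r = 0.897) and MXD4 (r = 0.868), and MXD4 followed MYCL (r = 0.708). MNT went with them too, with r = 0.764 to MXI1, 0.728 to MYCL and 0.521 to MXD4. MYC, by contrast, had r between -0.54 and -0.069 with the 8 other members whose mean was at least 1 CPM. The genes most like MXD4 were ING4, THBS3 and CREBRF (r = 0.981, 0.979 and 0.978). Those most like MXI1 were YPEL1, WDR6 and INPPL1 (0.954, 0.952 and 0.943), and those most like MYCL were LDB1, NUMA1 and VWCE (0.936, 0.934 and 0.925). MYC was most like TNPO2 and THEM6 (0.896 and 0.888). MXD3 was most like CDKN2C, a CDK inhibitor gene expressed in the cell cycle (0.854). The nearest genes were MSANTD2 for MAX (0.903), PLEKHS1 for MNT (0.943) and PFDN5 for MLXIPL (0.889).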

How the data were processed

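RNA of 60 libraries (4 lines, 5 arms, 3 replicates) was quantified per gene. The deposited tables hold estimated counts and log2 TPM values (log2 of TPM + 0.01) made by the authors. The submitters' processing notes name HISAT2 2.1.0, Salmon 0.8.2 and hg38 without their roles. Annotation and strand use are not given in the sources used here. Library totals were 17.7 to 49.1 M and differed by line. The part of depth in the number of calls was not tested.

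Counts were rounded and tested with edgeR 4.0.16 (R 4.3.3): TMM scaling, filterByExpr, the quasi-likelihood F-test (2-sided) and Benjamini-Hochberg adjustment over all genes tested, with calls at an adjusted p under 0.05. Each comparison used its 6 libraries, the differences between lines all 60 and the DMSO level 12. CPM are TMM-scaled. Scripts were tested on simulated data in which few genes changed, unlike here, so error rates in these data were not measured. Alternatives were DESeq2 1.42.0, RLE size factors, library sizes alone, other filters, limma 3.58.1 on log2 TPM, all arms of a line, a replicate block and each library left out. Members, gene lists and tests were chosen with earlier results of these data known. The alternatives for the MYC-activated counts were added after seeing the data. All 10 members are named, with list genes as examples and the 3 genes of highest Pearson r to each member among those averaging 1 CPM, of which some are not reported here. Same-numbered libraries were checked for pairing: all 3 correlations of their deviations exceeded 0.1 in 3 of 24 comparisons (acute against DMSO in HCC2935, and short washout against DTP in HCC827 and H1975). The promoter sequences are RefSeq's (GRCh38.p14), with 12 windows for 9 members, and gene positions are GENCODE's. In the figures Python 3.11.15 and matplotlib 3.10.9 were used.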

Additional observations from a re-analysis of the deposited data

Results flagged for a closer look

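Acute osimertinib changed 6 members by different amounts in the 4 lines, by the interaction test on all 60 libraries, which called 41.4% of all genes. The range of their log2 fold changes over the lines was 1.96 for MYC, 1.28 for MXD4, 1.19 for MXD3, 1.08 for MXD1, 0.84 for MAX and 0.69 for MXI1. That of MXD1 was lost in 11 fits without 1 library of PC9, HCC827 or HCC2935, with library sizes alone and with limma, and that of MXI1 without PC9 DMSO replicate 3, HCC2935 DMSO replicate 2 or HCC2935 acute replicate 3. In DTPs 8 members differed in that way (63.9% of all genes), with ranges of 2.21 for MLXIPL, 1.95 for MYCL, 1.87 for MXD3, 1.74 for MYC, 1.41 for MXD1, 1.29 for MXD4, 0.87 for MXI1 and 0.83 for MAX. The MLXIPL difference was lost without HCC827 DMSO replicate 2 or HCC827 DTP replicate 2 (adjusted p = 0.0621 to 0.0765). The upper end of its range was HCC827 (0.91), where MLXIPL was low (0.287 to 3.56 CPM under DMSO) and not called. After long washout 8 members differed between the lines relative to DMSO (57.1% of all genes), with ranges of 2.84 for MYCL, 2.03 for MLXIPL, 2.01 for MXD3, 1.97 for MYC, 1.41 for MXI1, 1.21 for MXD1, 0.96 for MAX and 0.74 for MNT. That of MLXIPL was lost in 7 fits that left out a library, 3 of them of HCC827 and 4 of HCC2935 (range 1.52 to 2.05, adjusted p = 0.0516 to 0.164). Its upper end was again HCC827 (0.94), where MLXIPL was not called. The washout differed in length between the lines, so line and length cannot be told apart there. The log2 fold change of MAX lay on both sides of 0 over the lines in all 3 comparisons, called lower in H1975 after acute treatment and called higher in HCC2935 (acute, DTP) and HCC827 (DTP, long washout).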

How the results depend on the processing

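Of 95 member differences that were called, 62 kept their call and direction under every alternative, and of 127 that were not, 106 stayed uncalled. MAX in PC9 was the one member to reverse and pass the threshold, uncalled in edgeR and higher with limma on log2 TPM, in DTPs against DMSO (0.19) and against acute treatment (0.26). Another 119 of 3102 refitted values changed sign without being called. Members called after short washout went from 4 to 1 with all arms of a line fitted, and after long washout against DTP from 5 to 8 with DESeq2, 2 with limma, 8 with all arms and 2 with the replicate block (2 to 7 with a library left out). Genes called after short washout went in PC9 from 3221 to 880 with all arms and 2023 with the block (1785 to 2649 with a library left out, lowest without short washout replicate 2), in HCC827 from 0 to 2 with the block, in H1975 from 0 to 399 with DESeq2, 9 with all arms and 1697 with the block (0 to 276, highest without DTP replicate 2), and in HCC2935 from 503 to 1163 with DESeq2 and 244 with the block (76 to 674, lowest without short washout replicate 3). After long washout against DTP they went in PC9 from 2496 to 4224 with DESeq2 and 5532 with all arms (0 to 6815), in HCC827 from 0 to 7 with DESeq2 (0 to 3), in H1975 from 2 to 72 with DESeq2, 0 with limma and 1 with all arms (0 to 1), and in HCC2935 from 745 to 1702 with DESeq2, 1758 with all arms and 38 with the block (17 to 1837). Against DMSO, PC9 long washout went from 4278 to 6672 with all arms (1364 to 5316, lowest without DMSO replicate 3). DTP against acute treatment ranged over 2328 to 5237 in HCC827 and 1775 to 4610 in H1975, lowest without acute replicate 1 and acute replicate 2. MYC-activated genes lower after long washout ranged over 5 to 26 in PC9, 10 to 18 in HCC827 and 11 to 17 in HCC2935. The cause of these changes was not tested, apart from the fewer or more libraries in the fits that left out a library or took all arms.

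The replicate block, used here also where the numbers do not pair the libraries, ended 10 called member differences and added 1, none in the 3 comparisons where they pair. Same-numbered libraries correlated best with their own number in those 3 comparisons only. Of 840 fits of a difference between lines without 1 library, 37 lost a call and 2 gained one. Low counts limit MYCN and, in PC9, HCC827 and H1975, MYCL. They also limit MLXIPL in HCC827 (0.287 to 3.56 CPM under DMSO).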
